A study of Mus musculus with 9 samples.

Results

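Splenic Ly6Clo monocytes of mice that lack the +37 element of Cebpa were compared with Ly6Clo monocytes of wild-type mice across all genes. The comparison takes the 3 libraries labelled KO and the 3 labelled WT of this cell type, 6 of the 9 libraries of the series. KO stands for the genotype Cebpa +37-/-, homozygous loss of an enhancer element of Cebpa, and WT for the wild type. The other 3 libraries, of WT Ly6Chi monocytes, shared the estimate of the spread and give the level of each gene in the other monocyte subset. All mice were C57BL/6, and the cells of every library were untreated monocytes sorted from spleen, 40000 to 50000 per library, with 10 ng of total RNA as input for the sequencing library. The labels give neither the sex and age of the mice nor the bounds of the deleted element. Whether each replicate came from its own animal is not stated, so a p-value here reflects only how these libraries vary, which may be technical variation.

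C/EBP-alpha, the product of Cebpa, is a transcription factor of the basic leucine zipper class that pairs with other C/EBP proteins and directs haematopoietic progenitors towards granulocytes and monocytes. The +37 element is an enhancer downstream of Cebpa that is active in blood progenitors and myeloid cells. Monocytes fall into a classical Ly6Chi subset, which carries Ccr2 and enters inflamed tissue, and a nonclassical Ly6Clo subset, which patrols the vessel wall and depends on the nuclear receptor Nr4a1. C/EBP-beta, the product of Cebpb, is the family member best known for its role in the survival of Ly6Clo monocytes.

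The promoters of 3 genes are shown: Cebpa itself, Wls, whose lower level was called in the most analyses, and Mgst1. Among the called genes with a promoter window, Mgst1 was the 1 with a match to the motif marked below. Each window runs from 250 bases before to 50 bases after a RefSeq transcript start in GRCm38.p6 and is written 5′ to 3′ on the strand of the gene. Capitals mark a match to TTGCNNAA, a C/EBP-type motif searched on both strands.
Cebpa promoter, chr7:35119043-35119342, + strand: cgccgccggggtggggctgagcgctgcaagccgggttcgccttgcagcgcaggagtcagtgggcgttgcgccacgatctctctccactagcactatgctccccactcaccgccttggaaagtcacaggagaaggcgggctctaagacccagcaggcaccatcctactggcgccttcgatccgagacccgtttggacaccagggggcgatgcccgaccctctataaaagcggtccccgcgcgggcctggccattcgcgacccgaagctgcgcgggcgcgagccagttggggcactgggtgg
Wls promoter, chr3:159839400-159839699, + strand: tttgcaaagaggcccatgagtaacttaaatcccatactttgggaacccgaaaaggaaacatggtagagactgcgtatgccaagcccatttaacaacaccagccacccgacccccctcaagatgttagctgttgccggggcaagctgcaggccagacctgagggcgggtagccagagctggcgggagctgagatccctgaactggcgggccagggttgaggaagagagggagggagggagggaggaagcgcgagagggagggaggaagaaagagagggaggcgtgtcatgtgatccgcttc
Mgst1 promoter, chr6:138140277-138140576, + strand: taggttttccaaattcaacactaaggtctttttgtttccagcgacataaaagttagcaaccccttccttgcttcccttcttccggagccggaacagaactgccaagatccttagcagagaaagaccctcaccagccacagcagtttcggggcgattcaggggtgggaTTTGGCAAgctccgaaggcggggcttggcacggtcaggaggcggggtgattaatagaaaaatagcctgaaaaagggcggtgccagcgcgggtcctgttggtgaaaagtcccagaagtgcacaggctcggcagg
The match in Mgst1 begins 83 bases before the start, and the other Mgst1 window held no match. RefSeq windows were found for 10 of the 13 genes called below, 11 windows in all, and 1 of the 11 held the motif. Among all 32851 promoter windows of this length, 3547 held it, which is 10.8%. The share among the called genes was thus close to that of all promoters. A looser form of the motif, TTNCNNAA, was found in 5 of the 11 windows (45.5%) and in 40.7% of all windows.

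Total counts per library ran from 48141590 to 173703361, with the highest totals in WT replicate 2 and KO replicate 2. Levels are CPM, counts scaled to a common library size with TMM factors, which even out differences in the make-up of the libraries, and 3 counts equal 0.0173 to 0.0623 CPM before that scaling. The sort itself was visible in Ly6c2, a gene of the Ly6C antigen, which lay between 2.14 and 5.33 CPM in the 6 Ly6Clo libraries and between 862 and 1063 CPM in WT Ly6Chi. KO replicate 1 stood apart from the other 5 Ly6Clo libraries: on the first principal component, 33.5% of the variance, it lay at -153.6 and the others between -61.8 and 70. Its erythroid markers summed to 20.7 CPM against 418 to 7882 in the other 5, and its immediate early and heat shock genes to 4701 CPM against 6411 to 41208. The Y-linked genes Ddx3y, Eif2s3y and Kdm5d were at 0 and Uty at 0.0204 CPM in WT Ly6Chi replicate 3, while the other 8 libraries held at least 14.1 CPM of each. That library thus differed from the other 8 in sex-linked expression, and it shares the estimate of the spread: without it edgeR called 5 genes in place of 13. The part of these differences in the results was not tested, and results are also given without KO replicate 1 and without WT Ly6Chi replicate 3.

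Cebpa (ENSMUSG00000034957, chromosome 7, 35119293 to 35121928 in GRCm38) checks the labels, since the deleted element belongs to it. It held 4.04, 2.89 and 2.74 CPM in KO replicates 1 to 3, 18.2, 17.7 and 19.2 CPM in WT, and 31.5, 51.3 and 51.6 CPM in WT Ly6Chi. All 3 KO libraries thus lay below every WT library of either subset, and the transcript was still detected in each. By the quasi-likelihood test of edgeR, with p-values adjusted over 18341 genes by the Benjamini-Hochberg method, Cebpa fell by 2.51 on the log2 scale (SE 0.27, adjusted p = 0.015). The edgeR call was lost in 6 of the 9 fits that left out 1 library (adjusted p = 0.055 to 0.079). Log2 fold changes lay between -2.71 and -2.41 when 1 library was left out. The edgeR call was also lost in the fit of the 6 Ly6Clo libraries (0.13). With replicate number as a block it was lost over 9 libraries (0.056) and over the 6 Ly6Clo libraries (0.27). It was kept without KO replicate 1, at -2.71 on the log2 scale (adjusted p = 0.021).

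The other members of the family did not pass this test. Cebpb held 1318, 1301 and 966 CPM in KO and 1257, 2471 and 1288 CPM in WT, where WT replicate 2 alone was high and the groups overlapped. Cebpg, a partner without an activation domain of its own, held 107, 62.6 and 56.3 CPM in KO and 135, 108 and 103 CPM in WT, a log2 difference of -0.62 (SE 0.25, edgeR adjusted p = 0.74). Cebpd held 122, 44.3 and 41.6 CPM in KO and 82.6, 65.1 and 43.3 CPM in WT. The log2 difference of Cebpd was 0.12 with KO replicate 1, its highest library, and -0.58 without it. Cebpe, a factor of late granulocytes, stayed at or below 0.385 CPM in all 6 Ly6Clo libraries, against 5.44 to 5.9 CPM in WT Ly6Chi.

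Across all genes, edgeR called 13 of the 18341 tested, 0.0709%, at an adjusted p under 0.05. Of these, 2 were higher in KO (0.0109% of the genes tested) and 11 lower (0.06%). An unadjusted p under 0.05 was found for 1130 genes (6.16%), 599 higher in KO (3.27%) and 531 lower (2.9%). The called genes lie on 10 chromosomes, with Cebpa the 1 on chromosome 7. The KO and WT libraries of all 13 did not overlap. Over all genes tested, the KO libraries lay above all WT libraries for 5.22% and below them for 5.7%. Fold changes were positive for 9655 of the 18341 genes and negative for 8681, the background of the list counts below. Some genes near Cebpa, called by DESeq2 alone, are named after their values were seen. Pepd held 76.9, 81.2 and 60 CPM in KO and 164, 207 and 108 CPM in WT (DESeq2 adjusted p = 0.0024). Gm45091, antisense over the Cebpa start, had 0 CPM in KO and 0.147 to 0.306 in WT (DESeq2 adjusted p = 0.013). Farther off, Gm12758 was higher, at 0.124 to 0.281 CPM in KO and 0 in WT (DESeq2 adjusted p = 0.031). Cebpg, between Pepd and Cebpa, was called by neither.

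**Figure D1:**
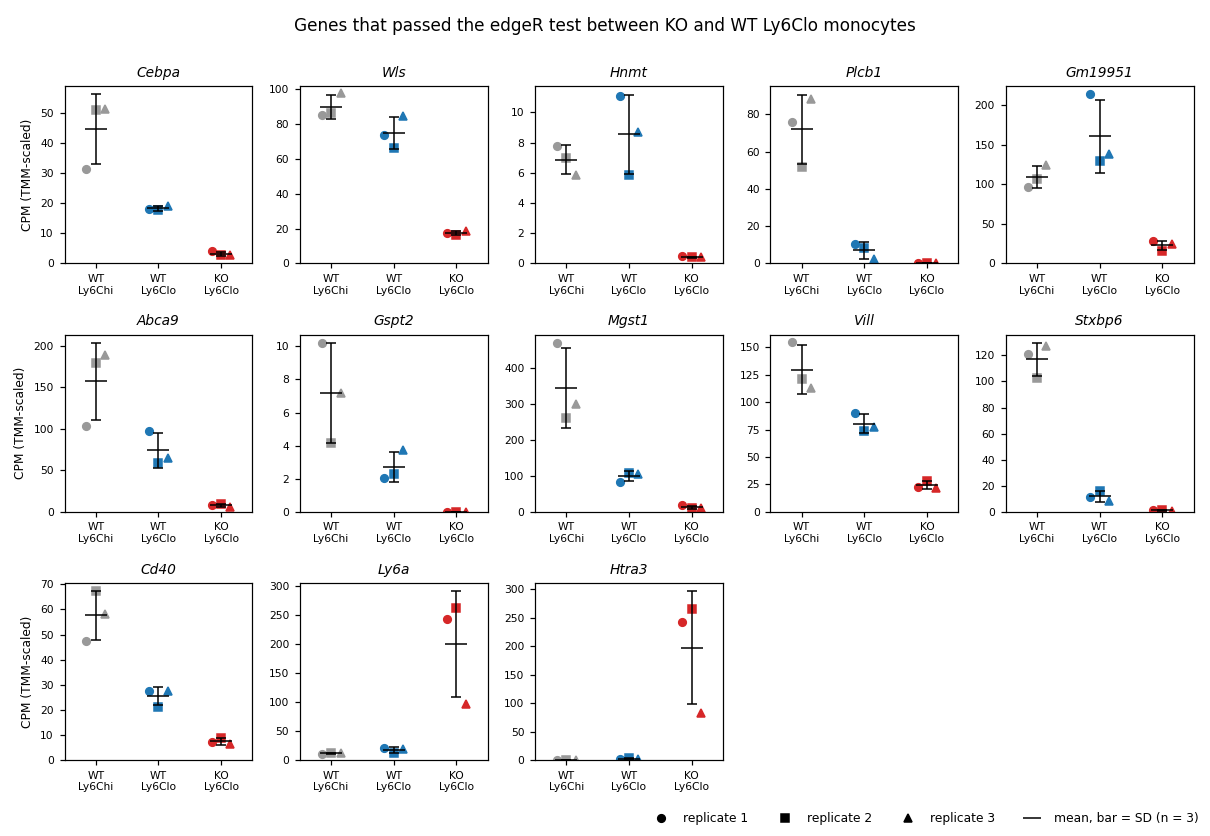
Level of the 13 called genes in CPM (vertical axis, linear from 0) in WT Ly6Chi, WT Ly6Clo and KO Ly6Clo libraries. Symbols are replicates 1 to 3, the bar is the mean and the whiskers are ± 1 SD (n = 3). In the 11 lower genes the KO points lie below those of both WT groups. Ly6a and Htra3 are the exceptions, with KO replicate 3 nearer to the WT than the other 2 KO libraries.

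Among the 11 lower genes, Wls had the smallest p. Wls (chromosome 3, 159839672 to 159938664) carries lipid-modified Wnt proteins from the Golgi to the cell surface, and its promoter is shown above. It held 17.7, 16.2 and 18.5 CPM in KO, 74, 66.2 and 84.6 CPM in WT, and 85.4 to 97.6 CPM in WT Ly6Chi. The KO libraries were within a narrow range, far from the lowest WT library. Wls fell by 2.10 on the log2 scale (SE 0.16, edgeR adjusted p = 0.0071).

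Of the other 21 Wnt genes tested, 0 were called by edgeR in either direction and 1 had an unadjusted p under 0.05, in the lower direction. That gene was the Wnt receptor Fzd4, at 6.67, 4.45 and 3.14 CPM in KO and 20.3, 24.8 and 17.3 CPM in WT. Its groups did not overlap, but its edgeR adjusted p was 0.13, while DESeq2 called it (adjusted p = 1.9e-06). The median log2 fold change of the list was -0.11, against 0.03 over all genes tested.

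Enzymes of small-molecule metabolism made up another set. Mgst1 (chromosome 6, 138140316 to 138156755), a membrane-bound glutathione transferase that also belongs to the Ly6Chi gene list, held 18, 9.15 and 10.4 CPM in KO and 83.8, 109 and 104 CPM in WT. It stood at 262 to 470 CPM in WT Ly6Chi, so the KO libraries were farther from that subset than the WT Ly6Clo libraries were. Mgst1 fell by 2.98 on the log2 scale (SE 0.33, edgeR adjusted p = 0.015). Hnmt (chromosome 2, 24002910 to 24049394), which inactivates histamine by methylation, held 0.466, 0.4 and 0.421 CPM in KO and 11.1, 5.86 and 8.69 CPM in WT. These KO values rest on 30, 57 and 24 counts, and the WT values on 604, 884 and 455. Hnmt fell by 4.31 on the log2 scale (SE 0.40, edgeR adjusted p = 0.013).

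The glutathione and xenobiotic list had 19 genes tested, with these 2 called lower and 0 higher. At an unadjusted edgeR p under 0.05, 3 were lower and 2 higher, and the median log2 fold change was -0.08. The third lower gene was Gstm1, a cytosolic glutathione transferase, at 5.12, 15.2 and 18 CPM in KO and 78.1, 105 and 91.8 CPM in WT. KO replicate 1 was lowest, and all KO libraries lay below the WT (edgeR adjusted p = 0.053), and DESeq2 called it. Mgst3, a relative of Mgst1, showed the opposite sign, at 9.79, 17.7 and 37.8 CPM in KO and 6.78, 10.2 and 5.84 CPM in WT, with overlapping groups and an edgeR adjusted p = 0.63.

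Abca9 (chromosome 11, 110100749 to 110168196) encodes an ATP-binding cassette transporter of the lipid-transporting A class. It held 7.96, 9.8 and 5.58 CPM in KO, 98, 59.2 and 64.6 CPM in WT, and 104 to 189 CPM in WT Ly6Chi. The highest KO library was far below the lowest WT library, and Abca9 fell by 3.25 on the log2 scale (SE 0.33, edgeR adjusted p = 0.015). It was the 1 call among 19 ABC transporters tested, of which 7 had a positive and 12 a negative fold change (median -0.06 on the log2 scale). The cholesterol transporter Abcg1 held 101, 78.7 and 51.8 CPM in KO and 53.3, 38.1 and 42.2 CPM in WT, with overlapping groups and an edgeR adjusted p = 0.64.

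Signalling and membrane proteins followed. Plcb1 (chromosome 2, 134786067 to 135475258), the phospholipase C that acts downstream of Gq-coupled receptors, had 0, 3 and 1 counts in KO replicates 1 to 3 and 583, 1271 and 113 counts in WT. In CPM these were 0, 0.021 and 0.0176 against 10.7, 8.42 and 2.16, with WT replicate 3 the lowest of the WT. The pooled counts, 4 in KO and 1967 in WT, give a level 504-fold higher in WT, with an exact 95% interval of 196 to 1850 that covers counting error only. Plcb1 stood at 51.9 to 88.2 CPM in WT Ly6Chi. It passed edgeR's test as lower (adjusted p = 0.013), with a fitted log2 fold change of -8.76 that depends on the prior count. Among 24 phosphoinositide and G protein genes it was the 1 called, and the median log2 fold change of the list was 0.08.

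Cd40 (chromosome 2, 165055627 to 165072948), the receptor through which T cells activate antigen-presenting cells, held 7, 8.91 and 6.32 CPM in KO and 27.4, 21.3 and 27.4 CPM in WT. WT Ly6Chi libraries held 47.6 to 67.3 CPM. Cd40 fell by 1.77 on the log2 scale (SE 0.23, edgeR adjusted p = 0.039), with no overlap between groups. Of the 17 costimulation and checkpoint genes tested, 4 had an unadjusted edgeR p under 0.05, all lower in KO, and the list's median was -0.14. One of the 4 was Tnfsf13b, which encodes the B cell survival factor BAFF, at 4.98, 10.2 and 11.8 CPM in KO and 29.4, 41.8 and 30 CPM in WT. Its edgeR adjusted p was 0.17, and DESeq2 called it (adjusted p = 6.3e-05). MHC class II genes, which Cd40 signalling accompanies in antigen presentation, had 0 of 10 members called by edgeR or DESeq2 and 0 at an unadjusted edgeR p under 0.05.

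Vill (chromosome 9, 119052778 to 119071525), a relative of the actin-severing protein villin, held 22.9, 28.3 and 21.8 CPM in KO and 90.6, 73.9 and 77 CPM in WT. It fell by 1.73 on the log2 scale (SE 0.19, edgeR adjusted p = 0.015). Stxbp6 (chromosome 12, 44852484 to 45074709), also called amisyn, binds syntaxins of the vesicle fusion machinery. It held 1.38, 1.43 and 0.439 CPM in KO and 11.3, 16.2 and 8.15 CPM in WT, with 103 to 127 CPM in WT Ly6Chi. Stxbp6 fell by 3.44 on the log2 scale (SE 0.44, edgeR adjusted p = 0.039). The villin list had 1 of 8 genes called and the vesicle fusion list 1 of 14, with medians of 0.08 and 0.14 on the log2 scale.

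The remaining 2 lower genes belong to no list. Gm19951 (chromosome 12, 99643093 to 99647221), annotated as a long noncoding RNA, held 27.9, 16.4 and 24.4 CPM in KO, 214, 130 and 138 CPM in WT, and 97 to 124 CPM in WT Ly6Chi. It fell by 2.81 on the log2 scale (SE 0.27, edgeR adjusted p = 0.013). Gspt2 (chromosome X, 94636069 to 94643244), a translation termination factor, had 0 counts in all 3 KO libraries and 650 in the WT, at 2.07, 2.27 and 3.72 CPM. Against 3 counts in each KO library, a mean of 0.0401 CPM, its level was at least 67-fold lower in KO (edgeR adjusted p = 0.015). Gspt2 resembles its parent gene Gspt1, and reads of the pair may be hard to tell apart.

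All 11 lower genes also lay below every WT Ly6Chi library in KO. For 9 of the 11 the mean of WT Ly6Chi was above that of WT Ly6Clo, the exceptions being Hnmt and Gm19951. These are levels side by side, since both comparisons would share the WT Ly6Clo libraries. The 11 genes were selected for low KO levels, and the share of all genes with these patterns was not computed. The counts thus show no trait particular to the called genes.

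Only 2 genes rose by this test, Ly6a and Htra3, and both were called in 4 or fewer of 9 fits that left out single libraries. Ly6a (chromosome 15, 74994877 to 74998031) encodes Sca-1, a surface antigen of haematopoietic stem cells and of interferon-stimulated leukocytes. It held 244, 262 and 95.8 CPM in KO, 21.5, 11.9 and 18.3 CPM in WT, and 9.96 to 12.3 CPM in WT Ly6Chi. KO replicate 3 had less than the other KO libraries and still more than every WT library. The log2 fold change was 3.54 (SE 0.40, edgeR adjusted p = 0.018). Reads of Ly6a may be shared with relatives of the Ly6 family, which would make its count less certain, and this was not tested. In WT Ly6Chi, where Ly6c2 held 862 to 1063 CPM, Ly6a held 9.96 to 12.3 CPM. Of the 9 Ly6 family genes tested it was the 1 called, with 4 positive and 5 negative fold changes.

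Markers of stem and progenitor cells stood beside it as follows. Among the 14 tested, Ly6a was the 1 called and Gfi1b, a factor of erythroid and megakaryocyte precursors, the 1 other at an unadjusted edgeR p under 0.05. The list, Ly6a included, summed to 291, 474 and 232 CPM in KO and 47.2, 129 and 111 CPM in WT, and no member was at 0 in all 6 libraries. Its median log2 fold change was 0.80, with 8 positive and 6 negative values. Among 20 interferon response genes edgeR called 0 and DESeq2 called Gbp2 (DESeq2 adjusted p = 0.0033), 3 were higher and 1 lower at an unadjusted edgeR p under 0.05, and the median was 0.03. The guanylate-binding protein Gbp2 held 133, 134 and 31.2 CPM in KO and 21.9, 18.4 and 32.8 CPM in WT, high in the 2 KO libraries in which Ly6a was highest. The part of these genes and markers in the difference in Ly6a was not tested.

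Htra3 (chromosome 5, 35652023 to 35679782) encodes a secreted serine protease. It held 242, 266 and 83.3 CPM in KO, 2.42, 3.34 and 1.7 CPM in WT and at most 0.232 CPM in WT Ly6Chi. KO replicate 3 was again the lowest of the KO libraries, and the log2 fold change was 6.30 (SE 0.80, edgeR adjusted p = 0.039). Of 12 serine proteases and inhibitors tested, 1 was called, and at an unadjusted edgeR p under 0.05, 4 were higher and 1 lower. The intracellular inhibitor Serpinb6a held 154, 113 and 90.7 CPM in KO and 61.2, 74 and 68.3 CPM in WT (edgeR adjusted p = 0.47).

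**Figure D2:**
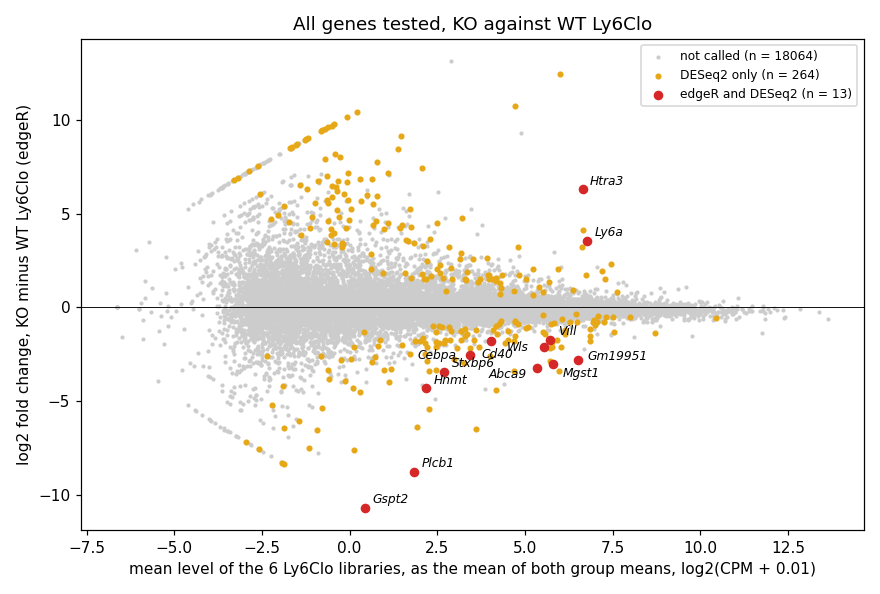
Log2 fold change of KO against WT Ly6Clo (vertical axis, edgeR) against the mean level, log2(CPM + 0.01), for each of the 18341 genes tested. Red points are the 13 genes called by edgeR and DESeq2, orange points the 264 called by DESeq2 alone and grey points the rest. Most orange points with positive fold changes lie at low levels, and the lines of points at the left edges are genes with no counts in one group.

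The calls differed in how far they rested on single libraries and on the model. Across 20 alternative analyses Wls was called in 18, Hnmt and Gm19951 in 17, Abca9 in 16, Plcb1 in 15, Htra3 and Mgst1 in 13, Gspt2, Vill and Ly6a in 12, Cebpa in 11, Stxbp6 in 7 and Cd40 in 6. Among the 9 fits that left out 1 library, Wls kept its call in every fit. Hnmt, Gm19951 and Abca9 lost it without WT replicate 3 (edgeR adjusted p = 0.055, 0.055 and 0.059) and Plcb1 without KO replicate 2 (0.06). Gspt2 lost it without WT Ly6Chi replicate 3 or WT Ly6Clo replicate 2 or 3 (adjusted p up to 0.07), and Mgst1 without these or KO replicate 2 or 3 (up to 0.079). Cebpa lost it without WT Ly6Chi replicate 3, any WT Ly6Clo library, or KO replicate 2 or 3 (up to 0.079). Vill lost it without WT Ly6Chi replicate 3, any WT Ly6Clo library, or KO replicate 1 or 3 (up to 0.1). Ly6a lost it without WT Ly6Chi replicate 3, any WT Ly6Clo library, or KO replicate 2 (up to 0.16), and Htra3 without these or KO replicate 1 (up to 0.22). Stxbp6 kept it only without KO replicate 3, and Cd40 in none of the 9 (up to 0.16 and 0.17). The sign of none of the 13 changed in any analysis, and it was the same within each of the 2 runs of library numbers. For Ly6a the log2 ratio of group means was 3.91 in the run that holds replicates 1 and 2 of both groups, and 2.38 in the run that holds replicate 3.

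**Figure D3:**
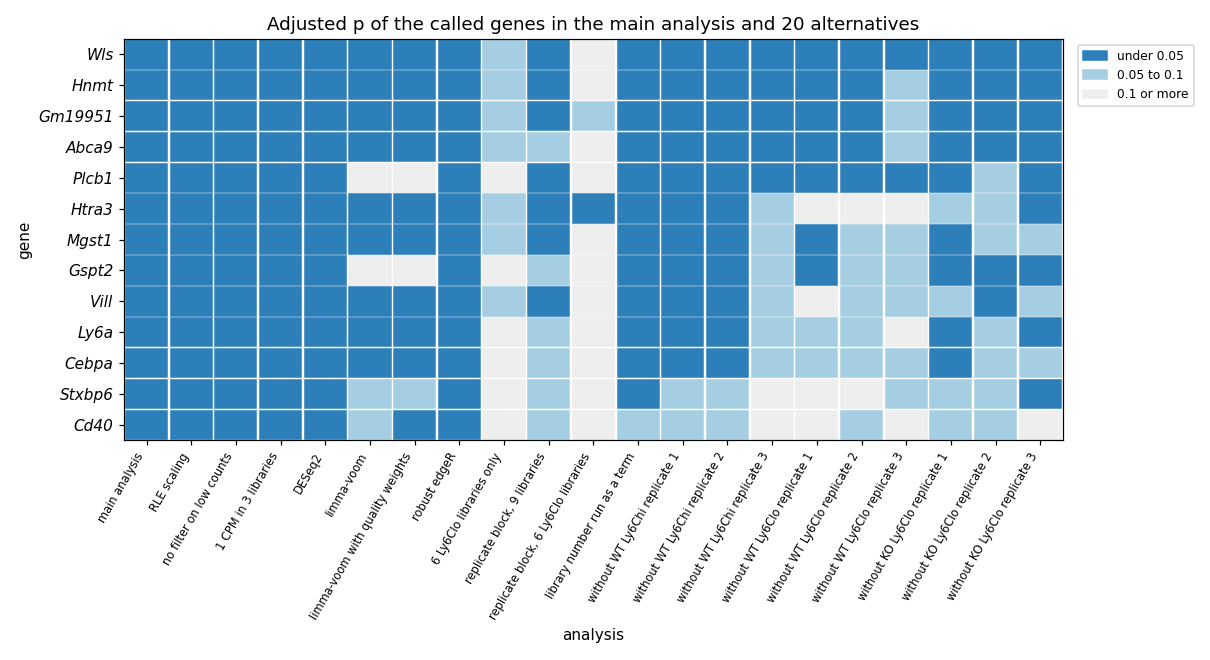
Adjusted p of the 13 called genes (rows) in the main analysis and in 20 alternatives (columns). Dark blue marks values under 0.05, light blue 0.05 to 0.1 and grey higher values. Wls is dark in all but the fit of the 6 Ly6Clo libraries and the same fit with a replicate block.

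The number of calls varied with the same choices. An edgeR fit restricted to the 6 Ly6Clo libraries called 0 genes, with 859 at p under 0.05 before adjustment, and DESeq2 called 277. Leaving out WT Ly6Chi replicate 3 gave 5 calls. Leaving out WT Ly6Clo replicate 1 gave 8, replicate 2 gave 5 and replicate 3 gave 2. Leaving out KO replicate 1 gave 21, and 9 of these were among the 13.

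Genes just outside the threshold are named here after their values were seen. The highest adjusted p among the called genes was 0.039, and 11 further genes had an edgeR adjusted p between 0.051 and 0.053, 3 higher and 8 lower in KO. F11r, the junctional adhesion molecule JAM-A, held 257, 150 and 130 CPM in KO and 25.2, 20.5 and 11.9 CPM in WT. Cd300lf, an inhibitory receptor for lipids of dying cells, held 234, 247 and 210 CPM in KO and 64.8, 98.7 and 75.3 CPM in WT. The KO libraries of both genes lay above all WT libraries. Nxpe5 had 0 counts in the WT Ly6Clo libraries and 1.43, 1.41 and 0.614 CPM in KO, at least 26.1-fold higher against 3 counts in each WT library. It stood at 4.86 to 17.9 CPM in WT Ly6Chi.

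Of the 8 lower genes just outside, the tyrosine kinase Bmx held 2.16, 4.1 and 7.18 CPM in KO and 50.4, 39 and 50.8 CPM in WT (edgeR adjusted p = 0.051). Pkd2, a calcium-permeable channel of the polycystin family, held 0.124, 0.133 and 0 CPM in KO and 10.7, 5.76 and 6.11 CPM in WT. The tetraspanin gene Tspan17 held 16.1, 8.33 and 10.3 CPM in KO and 44.5, 37.4 and 39.1 CPM in WT. The groups were apart in all 3. The others were Gstm1 (above), Ldhb, Cyp39a1, Pdlim1 and Gm33973, with log2 differences from -2.96 for Cyp39a1 to -1.54 for Pdlim1.

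Farther from the threshold, 3 genes with higher KO levels were picked by their values. The list of chemokine receptors and adhesion, which holds Pecam1, had 7 positive and 15 negative fold changes and a median of -0.19. Pecam1, which encodes CD31 of endothelial cells, platelets and leukocytes, held 337, 382 and 165 CPM in KO and 75.6, 61 and 38.1 CPM in WT (edgeR adjusted p = 0.079). The ectoenzyme Cd38, named after its values were seen, held 75.3, 47.9 and 29.1 CPM in KO and 6.51, 5.34 and 4.24 CPM in WT (edgeR adjusted p = 0.09). The peptidase Dpp4, on the dendritic cell list, held 348, 225 and 125 CPM in KO and 67, 58 and 56.7 CPM in WT (edgeR adjusted p = 0.15). In all 3 the KO libraries lay above every WT library, and KO replicate 3 was the lowest of the KO.

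Since Pecam1, F11r and Ly6a are also found in endothelial cells and platelets, markers of both are given beside them. Of 10 endothelial markers, a list added after the data were seen, Cdh5 reached at most 0.248 CPM, Emcn 0.0191 and Robo4 0.0199 in the 6 libraries. Others were higher in some KO libraries. Plvap held 0.0931, 1.64 and 2.98 CPM in KO and at most 0.147 in WT, and Esam 0, 1.35 and 0.614 CPM in KO and 0 in WT. Egfl7 held 0.0931, 2.76 and 2.35 CPM in KO and at most 1.07 in WT, and Kdr 2.59 CPM in KO replicate 1 against at most 0.649 in WT. Tie1 and Tek stayed at or below 0.491 CPM. The list summed to 42.4, 38.9 and 49.7 CPM in KO and 33.2, 103 and 65.6 CPM in WT, most of it Flt1, and the part of such cells in the results was not tested. Platelet and megakaryocyte markers summed to 187, 204 and 145 CPM in KO and 111, 99.2 and 144 CPM in WT. Of the 9 tested, edgeR called 0 and DESeq2 2, both higher in KO, against 0.796% of all genes called higher by DESeq2. Vwf was among the 2 (DESeq2 adjusted p = 0.036). Vwf, the von Willebrand factor gene, made up 103, 125 and 94.3 CPM of these in KO and 64.3, 43.1 and 65.1 CPM in WT, while Pf4 stayed at or below 1.89 CPM.

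**Figure D4:**
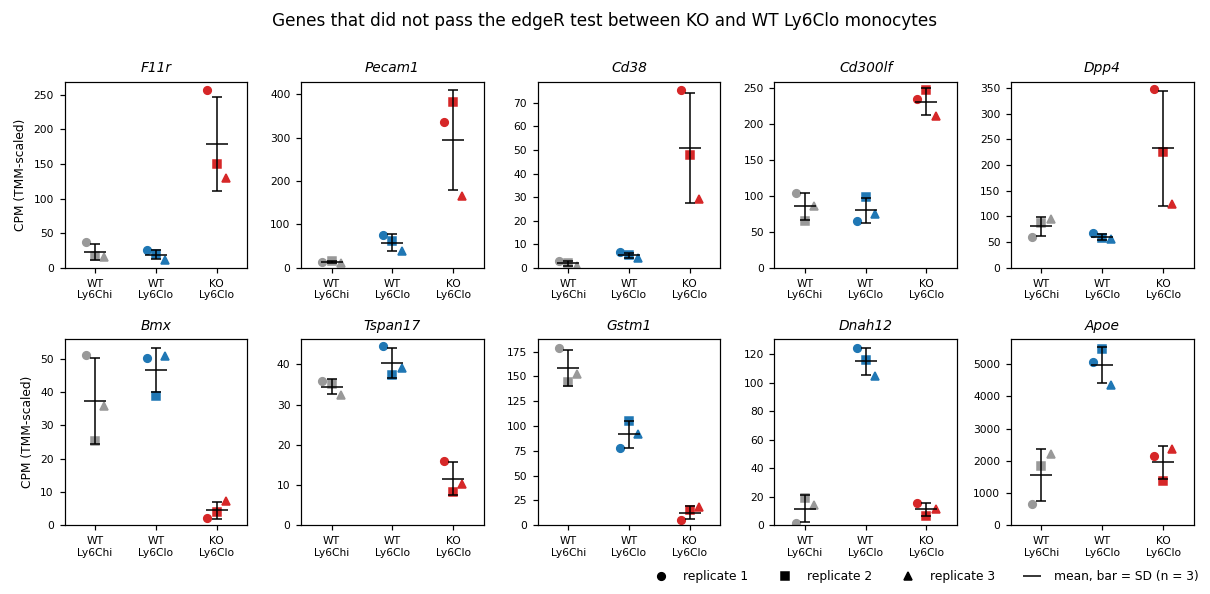
Level in CPM (vertical axis, linear from 0) of 10 genes chosen after their values were seen, none of which passed the edgeR test, in WT Ly6Chi, WT Ly6Clo and KO Ly6Clo libraries. Symbols are replicates 1 to 3, the bar is the mean and the whiskers are ± 1 SD (n = 3). The KO and WT Ly6Clo points of each gene do not overlap.

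DESeq2 called 277 genes (1.51% of those tested), 146 higher (0.796%) and 131 lower (0.714%), among them all 13 of the edgeR calls. The 264 further genes are calls of this alternative alone. Of the 144 higher ones, 92 had a WT mean under 1 CPM, and the medians of the group means were 3.41 CPM in KO and 0.133 CPM in WT. Of the 120 lower ones, 36 had a KO mean under 1 CPM, with medians of 4.3 CPM in KO and 13.8 CPM in WT. The groups did not overlap for 126 of the 144 and 119 of the 120, against 5.22% higher and 5.7% lower over all genes tested. These genes were selected by a test on the same libraries, so their lack of overlap adds no separate support.

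Of the Ly6Chi list, whose 18 tested genes had 10 positive and 8 negative fold changes, DESeq2 alone called Chil3 and Fn1, both as lower. Chil3, a chitinase-like protein, held 0, 0.281 and 0.369 CPM in KO and 8.05, 14.5 and 5.71 CPM in WT, against 1002 to 3189 CPM in WT Ly6Chi. Fn1, which encodes fibronectin, held 0.388, 2.12 and 0.386 CPM in KO and 7.5, 17.1 and 5.54 CPM in WT, against 1682 to 3213 CPM. Both Ly6Clo groups thus held a small fraction of the Ly6Chi level of either gene, the KO the smaller. Cd209a, the DC-SIGN homologue of monocyte-derived and conventional dendritic cells, held 1.27, 2.24 and 1.28 CPM in KO and 4.93, 59.9 and 38.7 CPM in WT, with WT replicate 1 near the KO. Their DESeq2 adjusted p were 7.6e-05, 5.9e-05 and 1.5e-07, and their edgeR adjusted p 0.086, 0.25 and 0.18.

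Other genes called lower by DESeq2 alone were on no list. The scavenger receptor Colec12 held 0.202, 0.575 and 0 CPM in KO and 12.4, 25.6 and 34.5 CPM in WT, against 2.72 to 11.1 CPM in WT Ly6Chi. Dnah12, a heavy chain of axonemal dynein, held 15.4, 6.7 and 11.2 CPM in KO and 124, 116 and 105 CPM in WT, with 1.41 to 19.4 CPM in WT Ly6Chi. Sgms2, a sphingomyelin synthase, held 0.0621, 1.54 and 0.825 CPM in KO and 9.41, 8.6 and 8.27 CPM in WT, against 59.3 to 77 CPM in WT Ly6Chi. Colec12 and Dnah12 had an edgeR adjusted p = 0.16 and 0.31, and Sgms2 0.28.

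Among the higher genes that DESeq2 alone called, the rule for named genes gave, among others, Atp7b, Ctsk, Mmp14, Fcrl5, Myo10, Scel, Dmxl2, Paqr4 and Brca1. Mmp14, a membrane-bound matrix metalloproteinase, held 8.38, 14.9 and 30.5 CPM in KO and 0, 1.83 and 0.0955 CPM in WT. In Ctsk and Atp7b the KO libraries were far apart. Ctsk, the protease cathepsin K, stood at 16.5 CPM in KO replicate 1 and at 1.66 and 0.913 CPM in the others. Atp7b, a copper transporter, stood at 0.233 CPM in KO replicate 1 and at 6.45 and 9.71 CPM in the others. The edgeR adjusted p of these genes lay between 0.32 for Atp7b and 0.64 for Scel. The rule passes over immunoglobulin genes and pseudogenes, some of which DESeq2 alone called with larger fold changes than these genes. Ighg2b, an immunoglobulin heavy chain gene, held 24.2, 142 and 215 CPM in KO and 0, 0 and 0.0955 CPM in WT. Ighg1 held 0.295, 93.5 and 64.1 CPM in KO and 0.0917, 0.0133 and 0 CPM in WT.

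Genes that define the Ly6Clo subset were described over a list of 23, all of them tested. None was called by edgeR or DESeq2, 3 were lower and 1 higher at an unadjusted p under 0.05, and 20 had a negative fold change. The median was -0.28 on the log2 scale, against 0.03 over all genes. Apoe, the apolipoprotein of lipid export, held 2141, 1378 and 2359 CPM in KO and 5081, 5476 and 4355 CPM in WT. Fabp4, a fatty acid carrier, held 144, 52 and 94.9 CPM in KO and 356, 183 and 228 CPM in WT. The ribonuclease gene Ear2 held 341, 246 and 336 CPM in KO and 773, 418 and 630 CPM in WT. The groups did not overlap for these 3, whose edgeR adjusted p were 0.51, 0.62 and 0.49.

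The Fc receptor Fcgr4 had the opposite sign, at 816, 642 and 448 CPM in KO and 418, 295 and 384 CPM in WT (edgeR adjusted p = 0.77). Nr4a1 held 1638, 6262 and 5592 CPM in KO and 2458, 11134 and 5537 CPM in WT. Replicate 1 was lowest in both groups, as it was for the summed immediate early and heat shock genes. Treml4, a receptor of the subset, held 1211, 1205 and 1170 CPM in KO and 1655, 1841 and 1439 CPM in WT. Cx3cr1, the fractalkine receptor of patrolling monocytes, held 349, 324 and 474 CPM in KO and 533, 384 and 605 CPM in WT, with overlapping groups. The integrin gene Itgal held 1287 to 2275 CPM in KO and 1949 to 2319 in WT. Klf2 held 1101 to 1963 CPM in KO and 1253 to 1643 in WT, and Spn, which encodes CD43, 264 to 294 in KO and 293 to 360 in WT. Of 24 monocyte transcription factors 0 were called by edgeR, with 0 higher and 1 lower at an unadjusted p under 0.05, and DESeq2 called 1. The list's median log2 fold change was -0.07.

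For the Ly6Chi subset, 18 genes were tested, with Mgst1 the 1 called, 4 lower and 3 higher at an unadjusted edgeR p under 0.05, and a median of 0.09. Ccr2 held 187, 136 and 97.9 CPM in KO and 100, 83.8 and 93.8 CPM in WT, against 990 to 1512 in WT Ly6Chi (edgeR adjusted p = 0.8). Known C/EBP-alpha targets of myeloid cells numbered 18, with 0 called by edgeR and 1, Il1rn, by DESeq2, 4 lower and 2 higher at an unadjusted edgeR p under 0.05, and a median of -0.15. The lysozyme gene Lyz2 held 11057, 7457 and 11530 CPM in KO and 16990, 15158 and 14357 CPM in WT. Il1rn, the interleukin-1 receptor antagonist, held 5.26, 7.27 and 3.53 CPM in KO and 13.7, 14.7 and 9.38 CPM in WT. Csf3r, the receptor for granulocyte colony-stimulating factor, held 170, 269 and 328 CPM in KO and 356, 447 and 459 CPM in WT. The high-affinity Fc receptor Fcgr1 had the opposite sign, at 43.2, 40.4 and 23.5 CPM in KO and 21.7, 17.2 and 21.6 CPM in WT. The groups did not overlap in these 4, and their edgeR adjusted p lay between 0.46 and 0.7.

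**Figure D5:**
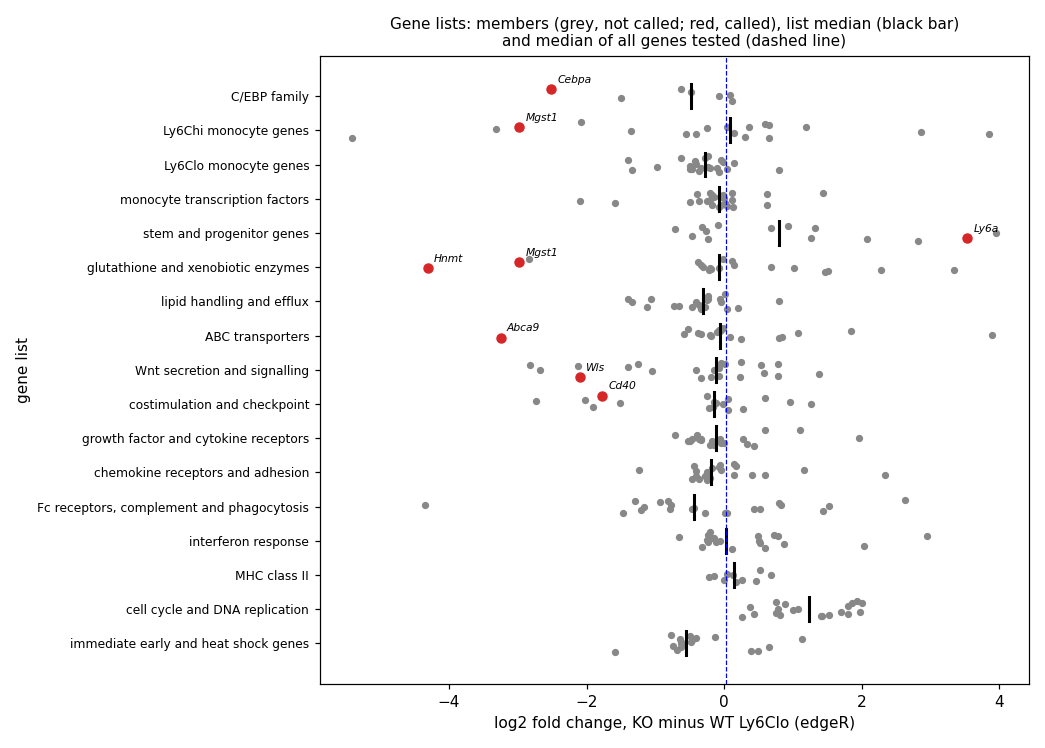
Log2 fold change of KO against WT Ly6Clo (horizontal axis, edgeR) for the members of 17 gene lists. Grey points are members that were not called, red points called members, black bars the list medians and the dashed line the median of all genes tested, 0.03. All members of the cell cycle list lie to the right of 0, and most members of the Ly6Clo list lie to the left.

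Scavenging and complement genes had members on both sides. Of 21 genes of Fc receptors, complement and phagocytosis, edgeR called 0 and DESeq2 Cd300lf and C3, 4 were higher and 4 lower at an unadjusted edgeR p under 0.05, and the median was -0.43. The scavenger receptor Msr1 held 0.76, 3.17 and 0 CPM in KO and 27.6, 30.7 and 25 CPM in WT, with 139 to 195 CPM in WT Ly6Chi (edgeR adjusted p = 0.36). Complement C3 held 85.3, 140 and 114 CPM in KO and 179, 195 and 208 CPM in WT, and the inhibitory receptor Fcgr2b 151, 110 and 87.1 against 185, 224 and 184. Of 20 genes of lipid handling 0 were called by edgeR or DESeq2, 5 were lower and 1 higher at an unadjusted edgeR p under 0.05, and the median was -0.30.

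Receptors of growth factors and cytokines gave 0 calls among 22, with 4 lower and 0 higher at an unadjusted edgeR p under 0.05. Ifnar2, a chain of the type I interferon receptor, held 126, 130 and 137 CPM in KO and 194, 190 and 183 CPM in WT, close within each group. Its log2 difference was -0.53 (SE 0.12), with an edgeR adjusted p = 0.35, and it was the 1 member that DESeq2 called. Il10rb held 91.5, 83.6 and 97.2 CPM in KO and 137, 119 and 129 CPM in WT. Among 22 chemokine receptors and adhesion molecules edgeR called 0, with 2 higher and 1 lower at an unadjusted p under 0.05, and DESeq2 called Pecam1. Among 21 inflammatory cytokines and chemokines 0 were called by edgeR or DESeq2 and 0 had an unadjusted edgeR p under 0.05.

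Cell cycle genes had positive fold changes in 20 of 20, with a median of 1.24 on the log2 scale. Of these, 5 had an unadjusted edgeR p under 0.05 and 0 were called by edgeR or DESeq2. Over all 18341 genes tested, 9655 had a positive fold change and 6.16% an unadjusted edgeR p under 0.05. The cell cycle genes summed to 403, 1247 and 1586 CPM in KO and 456, 735 and 561 CPM in WT, so that KO replicate 1 lay below the WT. Mcm7, of the replication helicase, held 70.5, 123 and 154 CPM in KO and 58.1, 73.4 and 73.7 CPM in WT. The mitotic kinase gene Cdk1 held 6.13, 14.9 and 31.4 CPM in KO and 1.39, 5.18 and 7.1 CPM in WT.

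Markers of other spleen cells differed between libraries of the same group. The erythroid list summed to 20.7, 7882 and 1998 CPM in KO against 418, 3463 and 570 in WT, with 11 of 11 members positive and 0 called. For B cells the KO sums were 152, 590 and 694 CPM and the WT sums 654, 818 and 595 CPM, and for type 1 dendritic cells 200, 656 and 190 against 285, 341 and 357 CPM. Markers of conventional and type 2 dendritic cells summed to 421, 448 and 201 CPM in KO and 109, 307 and 216 CPM in WT. T cell markers summed to 38, 189 and 118 CPM in KO and 68.7, 207 and 126 CPM in WT. For NK cells the sums were 20.5, 337 and 103 CPM in KO and 59.3, 251 and 165 CPM in WT. The sums of the erythroid, B cell, T cell and NK cell lists, and of the neutrophil list below, were lowest in KO replicate 1. The neutrophil list had a median log2 fold change of 1.59, with 10 of 12 members positive. Its summed level was 172, 285 and 366 CPM in KO and 362, 455 and 466 CPM in WT. Most of that sum was Csf3r, at 170, 269 and 328 CPM in KO and 356, 447 and 459 CPM in WT. The sum thus says little about the other members. Red pulp macrophage markers had a median of -0.77, with 11 of 12 members negative. DESeq2 called Ngp of the neutrophil list and Dpp4 and Cd209a of the dendritic cell list. None of these lists had a marker called by edgeR or a marker at 0 in all 6 libraries. In such sorted samples, fewer cells of a type and less RNA per cell cannot be told apart, and the part of other cells in the results above was not tested.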

How the data were processed

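RNA of sorted monocytes was sequenced as paired reads of 150 bases. Each table lists 55487 gene IDs with whole-number counts, deposited without normalization, per the file headers. CPM, FPKM and TPM columns, deposited by the authors beside the counts, matched values recomputed from counts and lengths within 7e-11 and entered no test. Tools listed without roles in the submitters' processing notes are bcl2fastq, featureCounts 1.4.6-p5 of Subread, limma, edgeR, Salmon 0.8.2 and STAR 2.5.1a, with the build GRCm38 (mm10). Strandedness and the treatment of shared reads are not given in the sources used here, so overlapping, antisense and near-identical genes are less certain. Symbols came from GENCODE M21 (99.53% of IDs matched).

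Counts were fitted in R 4.3.3 with edgeR 4.0.16 over all 9 libraries, with 1 term per group: 18341 genes kept by filterByExpr (by group, minimum count 10), TMM (factors 0.869 to 1.13), the quasi-likelihood test and Benjamini-Hochberg adjustment. A gene is called at an adjusted p under 0.05. The common dispersion was 0.448. SE come from the F statistic. Code was tested on simulated data with the same spread for all genes, lower than the common dispersion here. That test thus gives no error rates for these data. Replicates of a group differed by 55.2 to 482 in chi-square per gene, so none looked like a duplicate. Intervals and floors cover counting error only.

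Members and gene lists were chosen with earlier results of these data known, so lists got no test. Named were Cebpa, Cebpb, Cebpd, Cebpe, Cebpg, Ly6c2, Ccr2, Nr4a1, Cx3cr1, Treml4, Itgal, Spn and Klf2, every called gene and up to 4 members per list. Of genes called by DESeq2 1.42.0 alone, the 10 highest and 10 lowest fold changes were named. These came from genes without overlap whose higher group averaged 5 CPM or more. Symbols of the Gm, Rik, AC, AI and BC kinds, pseudogenes, immunoglobulin and T cell receptor genes and IDs without symbol were left out of these. A few genes under this rule are not reported here. Genes said to be named after their values were seen fall outside this rule. Alternatives were RLE scaling, other filters, DESeq2, limma-voom (limma 3.58.1), robust estimation, a fit of 6 libraries, a replicate block, the library number run as a term and each library left out. The library number run is the pair of stretches of consecutive library numbers in the names of the tables. A fit without KO replicate 1 in the 6 libraries was added after the data were seen. Promoters are from RefSeq (GRCm38.p6).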

Additional observations from a re-analysis of the deposited data

How the results depend on the processing

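The number of called genes, 13, was 14 with RLE scaling and 13 with robust estimation. It was 54 with no filter on low counts (40521 genes tested), 27 with 1 CPM in 3 libraries (13465 tested), 277 by DESeq2, 16 by limma-voom, 23 with quality weights, 17 with the library number run as a term and 0 in the fit of the 6 Ly6Clo libraries (859 at an unadjusted p under 0.05). Without single libraries it ran from 2 to 21. In the 6 libraries without KO replicate 1, added after the data were seen, it was 4. Splits of higher and lower calls moved from 2 and 11 to 16 and 38 with no filter, 6 and 21 with 1 CPM, 146 and 131 by DESeq2, 5 and 11 by limma-voom, 8 and 15 with quality weights and 5 and 12 with the run term. Whether replicate numbers pair the libraries was not settled by the correlations of their deviations. Same-numbered deviations correlated at r = 0.28, 0.19 and 0.05 over 18341 genes, and differently numbered ones at -0.22 to 0.1. With the replicate block, 13 genes were called over 9 libraries (4 higher and 9 lower, 7 shared) and 2 over the 6 Ly6Clo libraries (2 higher, 1 shared). The log2 fold change of Cebpa was -2.50 (adjusted p = 0.056) and -2.52 (0.27) in these blocked fits, -2.50 (0.13) in the unblocked fit of 6 libraries, -2.70 (0.097) in the added fit, and -2.71 to -2.41 without single libraries. Over 1842 values of 88 other named genes, 13 in 4 genes reversed, 0 of them in called genes. Without single libraries, Klf2 ran from -0.12 (without KO replicate 2) to 0.29, Cebpe from -2.30 to 1.89, Nr4a1 from -0.91 to 0.19 and Cebpd from -0.58 to 0.38. The reversals beside Klf2 were Cebpe by limma-voom (0.22), with quality weights (0.01) and without WT Ly6Clo replicate 1 (1.89), and Nr4a1 with quality weights (0.09) and without WT Ly6Clo replicate 2 (0.19). Cebpd reversed by limma-voom (-0.06), with quality weights (-0.25), with the replicate block in 9 and in 6 libraries (-0.01 in each), without WT Ly6Clo replicate 3 (-0.10), without KO replicate 1 (-0.58) and in the added fit (-0.57). The cause was not tested. The fit of 6 libraries has fewer samples to estimate the spread. With 3 libraries per group and a common dispersion of 0.448, precision is limited by the spread between libraries, and by depth only for genes near 3 counts.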
